A study of Drosophila melanogaster with 21 samples.

Results

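*Mmp2*, *Timp*, *vkg* and *SPARC* encode 4 proteins of the basement membrane and of the proteases that remodel it, and their transcripts were followed over the 7 genotypes of a *Drosophila* tumour series. The genes were taken by symbol: every probe set for which the array annotation gave one of these symbols alone was kept, which gave 6 probe sets of the 18769 tested and 4 genes of the 11982 that had a probe set of their own. *Mmp2* (CG1794) and *Timp* (CG6281) had 2 probe sets each, and *vkg* (CG16858) and *SPARC* (CG6378) had 1 each. Values are log2 levels after GCRMA, a normalisation that corrects for background and leaves a floor at 2.17. In the tests each probe set was compared only with itself. Sums over gene lists and correlations between genes join several probe sets and are given as descriptions.

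The basement membrane is the sheet of collagen IV, laminin, nidogen and perlecan that underlies epithelia such as the imaginal discs. *vkg* (*viking*) encodes a collagen IV chain, and *SPARC* encodes a collagen-binding glycoprotein needed for normal collagen IV deposition in the fly. Mmp2 is one of the matrix metalloproteinases of the fly, which cut basement membrane proteins and are known for their part in disc and tumour cell invasion, and Timp is the secreted inhibitor of these proteases. In larvae much of the collagen IV of the discs is made elsewhere, by fat body and haemocytes, and carried to the discs in the haemolymph, and haemocytes also attach to the discs.

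The samples were whole eye-antennal discs from larvae of the third instar at day 5 after egg deposition, in a w1118 background, with 3 arrays per group. The study asked what overexpressed *abrupt* (*ab*), a BTB zinc finger transcription factor, changes alone and in clones that lack *scribble* (*scrib*), a cell polarity gene, and which genes answer to Jun kinase (JNK) in *scrib*- tumours made by activated Ras or Notch. The scrib-+ab and ab discs carried clones that overexpressed *ab* with and without loss of *scrib*. The scrib-+RasACT+bskDN and scrib-+RasACT discs carried *scrib*- clones that expressed RasV12, and the scrib-+NotchACT+bskDN and scrib-+NotchACT discs carried *scrib*- clones that expressed the Notch intracellular domain. In the groups named +bskDN the clones also expressed bskDN, a dominant-negative form of the JNK Basket. The FRT control discs carried wild type clones. By the methods of the study, clones were made by MARCM on FRT82B with ey-FLP1, the *scrib* allele was scrib1, and Tub-GAL4 drove the transgenes and GFP in the clones. Every disc was thus a mixture of mutant and wild type cells. A lower level in such whole discs can mean fewer cells of a type or less RNA per cell, and these cannot be told apart.

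The triplicates are not said to come from separate crosses, so p-values measure the spread between these arrays. The *bsk* probe set read 15.75 to 15.82 on the 6 bskDN arrays and 10.79 to 12.02 on the other 15, as their labels would have it. None of the 9 eye-antennal disc markers analysed lay near the floor in any group. The 6 scrib-+ab and ab arrays stood apart technically: the mean signal of their poly-A spike-ins was 2.20 to 2.27, against 6.26 to 8.74 on the other 15 arrays, and the 5′ minus 3′ signal of *Gapdh* was -3.69 to -2.20, against -0.67 to -0.29. All arrays of both *ab* groups and none of the control had these values, so array handling and genotype cannot be told apart when these groups are set against control. By the methods, RNA of the *ab* groups also came from fewer discs than RNA of the control.

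*Mmp2* was lower than in control discs in all 6 other groups. It was 15.5-fold lower in scrib-+ab, 8.60-fold lower in ab, 8.41-fold lower in scrib-+NotchACT+bskDN and 2.11 to 3.12-fold lower in the other 3 tumours. The level was 8.10, 7.80 and 6.99 on the scrib-+ab arrays, 8.70, 8.45 and 8.30 on the ab arrays, and 11.59, 11.59 and 11.58 on the control arrays. Neither *ab* group came near the control, and the 3 control arrays were closer to each other than those of any other group (SD 0.005).

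In the Ras tumours *Mmp2* read 10.17, 10.73 and 10.63 with bskDN, 9.93, 10.19 and 10.45 without it. In the Notch tumours it read 8.37, 8.62 and 8.55 with bskDN, against 10.04, 9.88 and 9.92 without it. The Ras groups overlapped, whereas the Notch groups did not. In order of their means the groups ran scrib-+ab (7.63 ± 0.58), ab (8.48 ± 0.21), scrib-+NotchACT+bskDN (8.52 ± 0.13), scrib-+NotchACT (9.95 ± 0.08), scrib-+RasACT (10.19 ± 0.26), scrib-+RasACT+bskDN (10.51 ± 0.30) and control (11.59 ± 0.005; SD, n = 3 each). Arrays overlapped between the neighbours ab and scrib-+NotchACT+bskDN, between scrib-+NotchACT and scrib-+RasACT, and between scrib-+RasACT and scrib-+RasACT+bskDN.

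The log2 change of *Mmp2* against control was -3.96 in scrib-+ab (SE 0.28, adjusted p = 1.09e-04) and -3.10 in ab (SE 0.28, adjusted p = 3.79e-04). It was -1.40 in scrib-+RasACT (SE 0.23, adjusted p = 4.16e-04), -1.64 in scrib-+NotchACT (SE 0.23, adjusted p = 1.81e-04), -1.08 in scrib-+RasACT+bskDN (SE 0.23, adjusted p = 0.00638) and -3.07 in scrib-+NotchACT+bskDN (SE 0.23, adjusted p = 2.41e-07). A probe set was called where the Benjamini-Hochberg adjusted p over all 18769 probe sets was under 0.05 and the absolute log2 change over 1. The scrib-+RasACT+bskDN call lies near that limit: without replicate 1 of that group the change was -0.91. The 6 comparisons share the 3 control arrays. Between scrib-+ab and ab the difference was -0.85 (95% interval -1.53 to -0.18, adjusted p = 0.133) and was not called. The second *Mmp2* probe set lay at the floor on every array and carried no signal. In RefSeq, 5 non-coding genes overlap the span of *Mmp2*.

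*Timp*, the inhibitor, took a different course from the protease: it was higher in both *ab* groups, lower in scrib-+NotchACT+bskDN, and not called in the other 3 tumours. It read 9.46, 9.62 and 9.06 in scrib-+ab discs, 9.76, 9.65 and 8.90 in ab discs, and 7.32, 7.11 and 6.86 in control discs. The *ab* groups overlapped each other and lay wholly above control. *Timp* read 7.39, 7.01 and 6.97 in scrib-+RasACT+bskDN, against 7.10, 7.39 and 7.54 in scrib-+RasACT. It read 4.42, 4.96 and 4.67 in scrib-+NotchACT+bskDN, against 6.50, 6.95 and 6.94 in scrib-+NotchACT. The 3 scrib-+NotchACT+bskDN arrays were the lowest of the 21, and scrib-+NotchACT, control and both Ras groups formed a middle set in which each neighbour overlapped the next.

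The change against control was 2.28 in scrib-+ab (SE 0.27, adjusted p = 9.74e-04; 4.87-fold), 2.34 in ab (SE 0.27, adjusted p = 0.00109; 5.06-fold) and -2.41 in scrib-+NotchACT+bskDN (SE 0.24, adjusted p = 3.61e-06; 5.33-fold lower). It was 0.25 in scrib-+RasACT (95% interval -0.25 to 0.75), -0.30 in scrib-+NotchACT (-0.80 to 0.20) and 0.03 in scrib-+RasACT+bskDN (-0.47 to 0.53), none of them called. scrib-+ab and ab differed by -0.05 (-0.71 to 0.60).

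The second *Timp* probe set gave the same order of the group means, with a smaller difference in the *ab* discs. It read 9.02, 8.69 and 7.40 in scrib-+ab, 8.74, 8.42 and 8.19 in ab, and 7.31, 7.12 and 7.13 in control. The changes of 1.18 in scrib-+ab (adjusted p = 0.0849) and 1.27 in ab (adjusted p = 0.0717) were not called, so the higher *Timp* of the *ab* groups was called here by 1 of its 2 probe sets. The study itself lists both *Timp* probe sets as higher in both *ab* groups, at the same limits on adjusted p and log2 change. Both probe sets were lower in scrib-+NotchACT+bskDN, where the second read 3.90, 3.84 and 4.12 (-3.23 against control, adjusted p = 9.56e-06). In RefSeq, *Timp* lies within the span of *Syn*.

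Muscle genes changed in the groups in which *Timp* was called, and also in tumours in which it was not. Over the 6 muscle and myoblast markers analysed, summed log2 levels were 40.78 to 42.87 in scrib-+ab, 36.95 to 39.76 in ab, 27.35 to 32.02 in scrib-+RasACT+bskDN, 33.57 to 36.76 in scrib-+RasACT, 20.92 to 22.61 in scrib-+NotchACT+bskDN, 32.32 to 34.51 in scrib-+NotchACT and 27.69 to 32.30 in control. The markers *Mlc2*, *up* and *TpnC73F* were higher in both *ab* groups (3 of 6 called higher in each), against 8.72% of all probe sets in scrib-+ab and 8.68% in ab. *TpnC73F* and *up* were lower in scrib-+NotchACT+bskDN (2 of 6), against 4.13% of all probe sets. In scrib-+RasACT, *Mlc2* (3.28) and *up* (1.84) were higher and *sls* (-1.37) lower than in control, and in scrib-+NotchACT *Mlc2* was higher (2.38). Of the defining myoblast markers, *Him* lay near the floor in every group and *twi* in scrib-+RasACT+bskDN, scrib-+NotchACT+bskDN and scrib-+NotchACT. In the other groups *twi* was low too, at most 3.29 on any array. The part of muscle and myoblast cells in the *Timp* result was not tested.

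**Figure D1:**
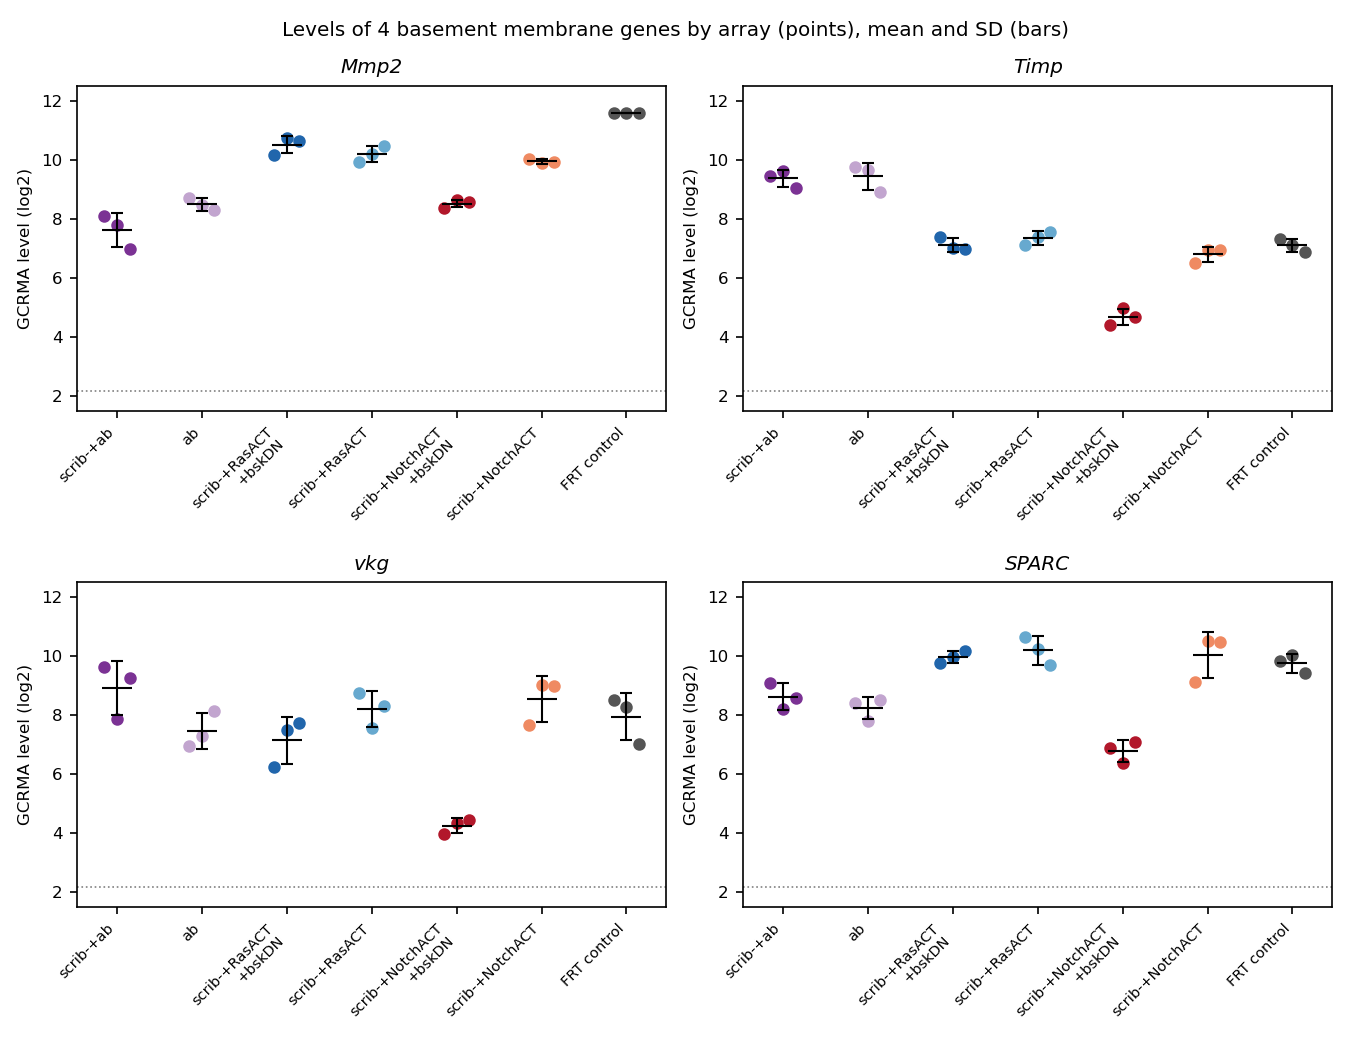
Levels (log2, vertical axis) of *Mmp2*, *Timp*, *vkg* and *SPARC* in the 7 groups (horizontal axis), with each array as a point, the mean and SD of 3 arrays as bars and the floor of 2.17 as a dotted line. *Mmp2* is highest in control (11.58 to 11.59), *Timp* is highest in scrib-+ab and ab (8.90 to 9.76), and *Timp* and *vkg* are lowest in scrib-+NotchACT+bskDN.

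*vkg*, the collagen IV chain, stood out in a single group. It read 3.97, 4.34 and 4.47 in scrib-+NotchACT+bskDN, against 7.66, 9.01 and 8.99 in scrib-+NotchACT. In the Ras tumours it read 6.25, 7.49 and 7.73 with bskDN, against 8.77, 7.57 and 8.33 without it. The scrib-+NotchACT+bskDN arrays lay below every other array, and the Ras groups overlapped.

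The other groups were scattered: *vkg* read 9.62, 7.89 and 9.25 in scrib-+ab, 6.95, 7.30 and 8.14 in ab, and 8.52, 8.28 and 7.03 in control. All these groups overlapped the control. Against control the log2 change of *vkg* was -3.69 in scrib-+NotchACT+bskDN (SE 0.57, adjusted p = 2.67e-04; 12.9-fold lower). Elsewhere it was not called: the change was 0.97 in scrib-+ab (95% interval -0.53 to 2.48), -0.48 in ab (-1.98 to 1.02), -0.79 in scrib-+RasACT+bskDN (-2.01 to 0.43), 0.28 in scrib-+RasACT (-0.94 to 1.49) and 0.61 in scrib-+NotchACT (-0.61 to 1.83), and scrib-+ab minus ab was 1.45 (-0.05 to 2.95). In scrib-+NotchACT the call depended on how the arrays were weighted: with array weights, the change was 1.13 and was called (adjusted p = 0.0319).

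*SPARC* shared the low level in scrib-+NotchACT+bskDN and, unlike *vkg*, was also called lower in both *ab* groups. It read 9.10, 8.22 and 8.58 in scrib-+ab, 8.41, 7.82 and 8.51 in ab, and 9.83, 10.04 and 9.42 in control. Both *ab* groups lay wholly below control and overlapped each other. In scrib-+NotchACT+bskDN it read 6.87, 6.37 and 7.10, against 9.13, 10.51 and 10.48 in scrib-+NotchACT. In scrib-+RasACT+bskDN it read 9.78, 9.97 and 10.18, against 10.66, 10.24 and 9.70 in scrib-+RasACT. The scrib-+NotchACT+bskDN arrays were the lowest of the 21, and the other tumours with active or blocked JNK overlapped control.

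Against control the log2 change of *SPARC* was -1.13 in scrib-+ab (SE 0.30, adjusted p = 0.0326; 2.18-fold lower), -1.51 in ab (SE 0.30, adjusted p = 0.0109; 2.85-fold lower) and -2.98 in scrib-+NotchACT+bskDN (SE 0.37, adjusted p = 3.46e-05; 7.91-fold lower). The scrib-+ab call is fragile: it was lost without scrib-+ab replicate 2 or 3 or control replicate 1 or 2 (-1.10 to -0.92, adjusted p = 0.0905 to 0.108), and with the 6 arrays of scrib-+ab and control alone (adjusted p = 0.0638). Not called were scrib-+RasACT+bskDN (0.21, 95% interval -0.57 to 1.00), scrib-+RasACT (0.44, -0.35 to 1.23) and scrib-+NotchACT (0.28, -0.51 to 1.07), and scrib-+ab minus ab (0.39, -0.34 to 1.12).

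Of the 4 genes, 3 were called in scrib-+ab against control, where 17.2% of all probe sets were called, 8.72% higher and 8.46% lower. In ab, 3 of 4 were called, where 14.5% of all probe sets were, 8.68% higher and 5.87% lower. In both groups *Timp* was the higher one and *Mmp2* and *SPARC* the lower ones. None of the 4 was called between scrib-+ab and ab (4.28% of all probe sets). Against control, 1 of 4 was called in each of scrib-+RasACT (6.43% of all probe sets, 3.68% lower), scrib-+NotchACT (4.03%, 2.38% lower) and scrib-+RasACT+bskDN (3.38%, 1.51% lower), and it was *Mmp2*, lower each time. In scrib-+NotchACT+bskDN 4 of 4 were called (5.71%), each of them lower (4.13% of all probe sets were lower).

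**Figure D2:**
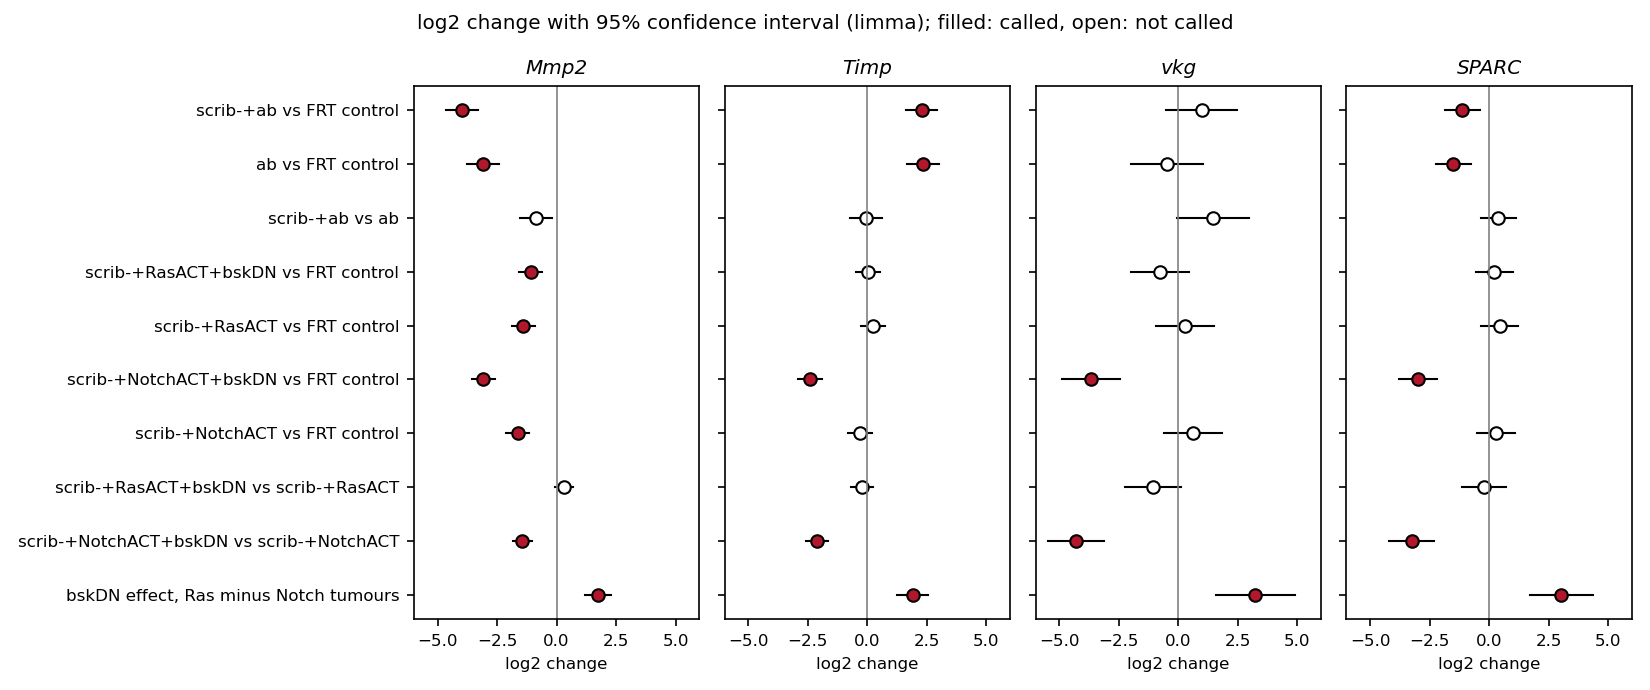
log2 change (horizontal axes) of the 4 genes in each comparison (rows), with the 95% confidence interval as a line. Filled points were called and open points were not. *Mmp2* is called lower in all 6 comparisons with control, and all 4 genes are called in both bottom comparisons.

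The effect of blocking JNK was then set side by side in both tumours. In the Notch tumours bskDN went with lower levels of all 4 genes. The log2 change in scrib-+NotchACT+bskDN against scrib-+NotchACT was -4.30 for *vkg* (SE 0.52, adjusted p = 7.17e-04; 19.7-fold lower), -3.26 for *SPARC* (SE 0.41, adjusted p = 8.68e-04; 9.60-fold lower), -2.11 for *Timp* (SE 0.20, adjusted p = 1.97e-04; 4.33-fold lower) and -1.43 for *Mmp2* (SE 0.17, adjusted p = 6.64e-04; 2.70-fold lower). Over all probe sets 5.37% were called in this comparison and 3.73% were called lower. The change of the second *Timp* probe set was -2.89 (adjusted p = 2.45e-04). On the Notch arrays named by a number alone, *vkg* (-4.37, adjusted p = 0.0644) and *SPARC* (-2.95, adjusted p = 0.0765) were not called, nor was *Mmp2* on those named by a letter alone (-1.33, adjusted p = 0.0514); these subsets hold fewer arrays and were chosen after seeing the data. In the Ras tumours none of the 4 was called, where 4.22% of all probe sets were: *vkg* differed by -1.06 (95% interval -2.24 to 0.12, adjusted p = 0.313), *SPARC* by -0.23 (-1.16 to 0.70), *Timp* by -0.22 (-0.67 to 0.23) and *Mmp2* by 0.32 (-0.07 to 0.71).

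The difference between the 2 effects was itself called for all 4 genes, against 4.51% of all probe sets (3.29% in the direction of all 4 genes). The effect of bskDN in Ras tumours minus that in Notch tumours was 3.23 for *vkg* (SE 0.73, adjusted p = 0.0283), 3.04 for *SPARC* (SE 0.57, adjusted p = 0.013), 1.89 for *Timp* (SE 0.28, adjusted p = 0.00417) and 1.75 for *Mmp2* (SE 0.24, adjusted p = 0.00297). The calls of all 4 genes depend on the fit and were not kept in every alternative tried. The *vkg* call was lost on leaving out scrib-+NotchACT replicate 2 or A, any 1 scrib-+NotchACT+bskDN array, scrib-+RasACT replicate 2, or scrib-+RasACT+bskDN replicate 2 or 3 (2.91 to 3.34, adjusted p = 0.0602 to 0.0745), and after a further quantile normalisation (2.52, adjusted p = 0.0697). JNK response genes changed in both tumours, though not alike. With bskDN 5 of 7 were lower in the Ras tumours (*Ets21C* -4.67, *Ilp8* -3.27 and *upd1* -2.93), where 4.22% of all probe sets were called. In the Notch tumours 6 of 7 were lower (*Ets21C* -4.04, *Atf3* -2.72 and *puc* -2.28), against 3.73% of all probe sets. *Atf3* (-0.04) and *scaf* (-0.67) were not called in the Ras tumours, nor *upd1* (-0.84) in the Notch tumours. The difference between the 2 effects was called for *Atf3* (2.68), *scaf* (1.51), *upd1* (-2.09) and *Ilp8* (-1.99).

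Other basement membrane genes were lower as well in the Notch tumours. Of the 12 listed components other than *vkg* and *SPARC*, 7 were lower and none higher in scrib-+NotchACT+bskDN against scrib-+NotchACT, where 3.73% of all probe sets were lower. Their median change was -1.83 against 0 over all probe sets. With *vkg* and *SPARC* included, 9 of 14 were lower and the median was -2.68. The 9 were led by *Tig* (-4.78), an integrin ligand, *vkg* and *Col4a1* (-4.24), the other collagen IV chain, whose gene is the neighbour of *vkg* in RefSeq. *Pxn* (-4.21), the peroxidasin that cross-links collagen IV, *Glt* (-3.29), *wb* (-2.83), a laminin alpha chain, *Mp* (-2.52) and *trol* (-1.15), the fly perlecan, complete the set and are named here after their values were seen. *LanA*, *LanB1*, *LanB2*, *Ndg* and *Ppn* were not called. *Ndg* lay near the floor in every group but scrib-+ab, where it was low too, at 2.19 to 2.98.

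In the Ras tumours 2 of the 14 were called with bskDN, against 4.22% of all probe sets, *Tig* lower (-4.67) and *Mp*, a multiplexin collagen, higher (1.89). The difference between the tumours was called for 5 of 14 (3 of the 12 other than *vkg* and *SPARC*), each less lowered or more raised in the Ras tumours. Over all probe sets 3.29% were called in that direction. *Mp* (4.40), *Col4a1* (3.32) and *vkg* had the largest difference. *Col4a1* ranged from 6.47 to 7.63 in scrib-+RasACT+bskDN, against 7.73 to 8.48 in scrib-+RasACT, and from 3.95 to 4.26 in scrib-+NotchACT+bskDN, against 7.22 to 9.06 in scrib-+NotchACT. The Notch groups were far apart and the Ras groups did not overlap either, though the Ras change of *Col4a1* was not called.

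**Figure D3:**
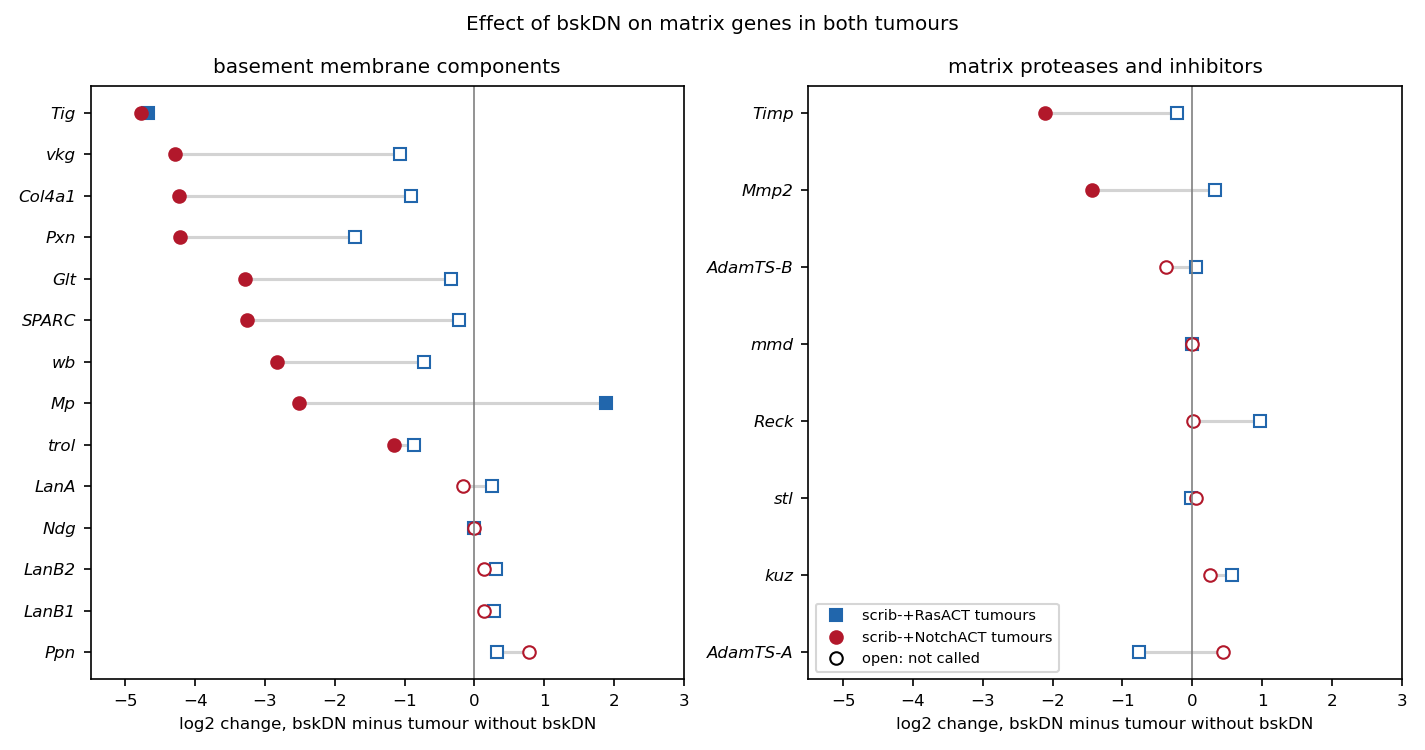
log2 change with bskDN (horizontal axes) of 14 basement membrane genes (left) and 8 protease and inhibitor genes (right) in scrib-+RasACT tumours (squares) and scrib-+NotchACT tumours (circles), with the vertical line at no change. Filled symbols were called, and 9 of the 14 basement membrane genes are filled circles left of the line.

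Haemocyte genes were lower with bskDN in the Notch tumours, where both collagen IV genes were lower too. Over 13 haemocyte markers the summed log2 level was 61.97 to 65.14 in scrib-+NotchACT+bskDN, against 91.94 to 103.08 in scrib-+NotchACT, and 73.55 to 92.15 in scrib-+RasACT+bskDN, against 91.99 to 103.16 in scrib-+RasACT. It was 102.48 to 116.82 in scrib-+ab, 97.47 to 108.87 in ab and 86.89 to 97.96 in control. In the Notch tumours 8 of 13 were called lower with bskDN (3.73% of all probe sets), led by *PPO1* (-7.65), *PPO2* (-5.95) and *Hml* (-5.24). In the Ras tumours 2 of 13 were called, both lower (*NimC1* -2.47 and *Pvr* -1.42), against 4.22% of all probe sets called. The median change over the 13 was -2.535 in the Notch tumours and -1.25 in the Ras tumours, where 9 were below 0 and 3 above. *NimC2* lay near the floor in every group and *NimC1* in scrib-+NotchACT+bskDN, scrib-+NotchACT and control.

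Within groups, the array lowest in *vkg* was the array lowest in the haemocyte sum in 6 of the 7 groups, and for *SPARC* in 5 of 7. For *Mmp2* and *Timp* this was so in 2 of 7 groups each. With the muscle sum the lowest arrays coincided in 3 of 7 groups for *vkg*, *SPARC* and *Timp* and in 2 for *Mmp2*, and with the glia and neuroblast sum in 2 to 4 of 7. Groups have 3 arrays each, and these counts are descriptions with no test. Fat body markers (5 analysed) summed to 20.40 to 45.26 in scrib-+RasACT+bskDN, against 17.78 to 19.44 in scrib-+RasACT, and to 20.29 to 21.35 in scrib-+NotchACT+bskDN, against 29.26 to 43.08 in scrib-+NotchACT. *Fbp2* was lower with bskDN in the Notch tumours (-5.74), 1 of the 5, against 3.73% of all probe sets. The difference between the bskDN effects was called for *Fbp2* (10.80), 1 of the 5, against 3.29% of all probe sets in that direction. *Fbp2* was widely spread in scrib-+RasACT+bskDN, from 5.915 to 11.58 (SD 3.04, 3 arrays). In scrib-+RasACT+bskDN the fat body sum was 20.40, 44.14 and 45.26 on replicates 1 to 3, where *vkg* read 6.25, 7.49 and 7.73. In scrib-+NotchACT it was 29.26, 43.08 and 42.78 on replicates 1, 2 and A, where *vkg* read 7.66, 9.01 and 8.99. In scrib-+RasACT the array highest in *vkg* (8.77) had the lowest sum (17.78). In scrib-+ab the array lowest in *vkg* (7.89) had the highest sum (26.67). Coinciding lowest arrays were not counted over the 7 groups for the fat body sum. The 8 glia and neuroblast markers summed to 51.83 to 54.05 in scrib-+NotchACT+bskDN, against 61.62 to 63.69 in scrib-+NotchACT, and to 62.62 to 63.95 in scrib-+RasACT+bskDN, against 60.85 to 65.01 in scrib-+RasACT. Of these 8, 3 were lower with bskDN in the Notch tumours (3.73% of all probe sets), *insc* (-3.98), a neuroblast gene, and *moody* (-3.39) and *repo* (-1.88), both glial. *dpn*, a neuroblast gene, was higher (1.28). In the Ras tumours *insc* was lower (-2.27) and *mira* (1.35) and *dpn* (1.02) were higher. Muscle markers were lower with bskDN in the Notch tumours too (3 of 6, *TpnC73F* -3.88, *up* -3.85 and *Mlc2* -3.49), against 3.73% of all probe sets. The part of these cell types in the lower *vkg*, *SPARC*, *Timp* and *Mmp2* was not tested.

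**Figure D4:**
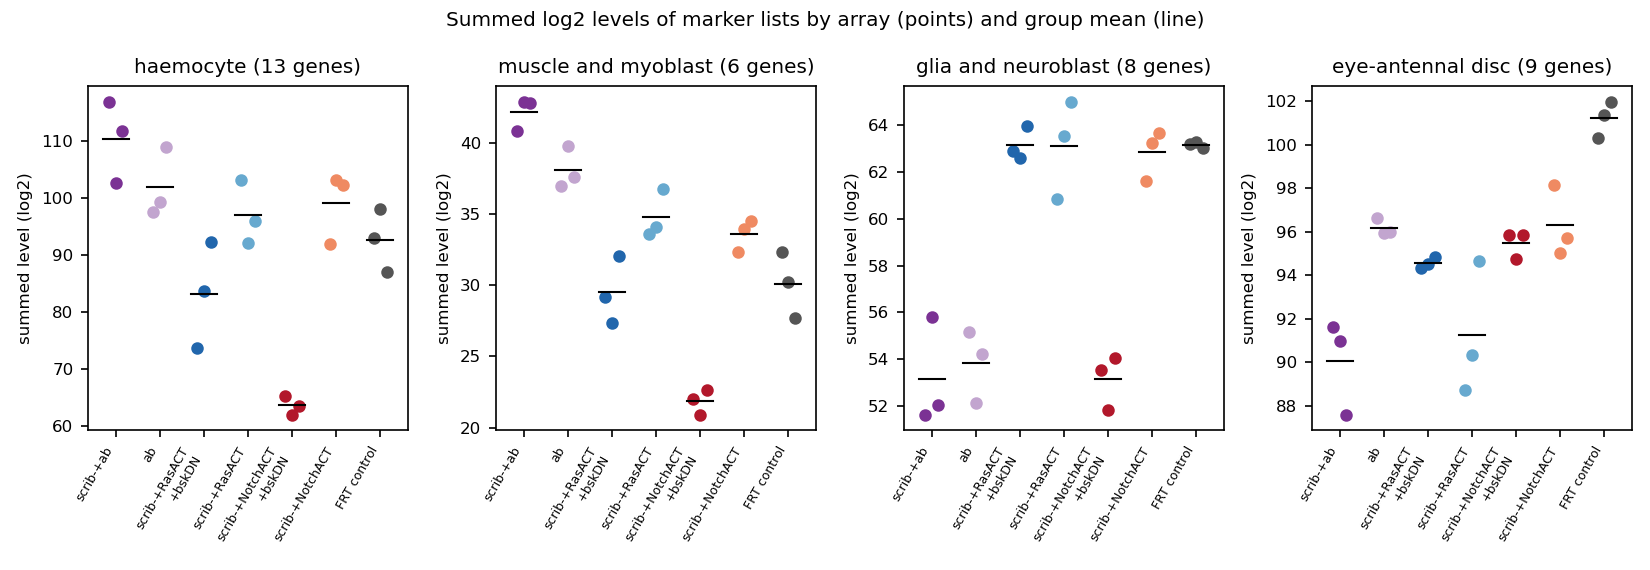
Summed log2 level (vertical axes) of 4 marker lists in the 7 groups (horizontal axes), with each array as a point and the group mean as a line. The scrib-+NotchACT+bskDN arrays are lowest for haemocyte (61.97 to 65.14) and muscle markers (20.92 to 22.61), and control is highest for eye-antennal disc markers (100.32 to 101.97). The vertical axes do not start at 0.

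In the *ab* discs the basement membrane list did not move as one. Of the 14 genes, 5 were higher and 1, *SPARC*, lower in scrib-+ab against control, where 8.72% of all probe sets were higher and 8.46% lower, with *Tig* (4.16), *Pxn* (2.47) and *Col4a1* (2.30) the most raised. In ab discs *Glt* was higher (3.07) and *SPARC* lower, so that 2 of 14 were called, against 14.5% of all probe sets. *Col4a1* was thus called higher in scrib-+ab while *vkg* (0.97) was not, and whether these changes differ was not tested. Against ab, scrib-+ab had higher *Tig* (3.40) and *trol* (1.15). Of the 13 haemocyte markers, 4 were called higher in scrib-+ab (8.72% of all probe sets) and 3 in ab (8.68%), and none lower, led by *NimC1* (5.40 in scrib-+ab and 4.11 in ab), *Sr-CI* (4.14 in scrib-+ab and 2.42 in ab) and *crq* (2.88 in scrib-+ab and 2.24 in ab). Others had means below control without being called: *Hml* averaged 7.06 in scrib-+ab, 6.68 in ab and 7.67 in control, *srp* 4.36 in scrib-+ab, 5.72 in ab and 6.01 in control, and *PPO1* was below control in ab alone, with 10.09 in scrib-+ab, 6.98 in ab and 8.54 in control. *lz* (1.33) was also called higher in scrib-+ab. In control discs *lz* averaged 10.26 and *Pvr* 9.44, and which cells this RNA came from was not tested. The part of haemocytes in these changes was not tested.

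Among the 8 protease and inhibitor genes analysed, *Mmp2* and *Timp* were the 2 called with bskDN in the Notch tumours (5.37% of all probe sets). None was called in the Ras tumours (4.22% of all probe sets). The other 6 genes were thus not called in either tumour, and of these *stl* lay near the floor in every group. The difference between the tumours was also called for *AdamTS-A* (-1.21), a secreted metalloprotease gene. *Reck*, which in mammals encodes a membrane-bound inhibitor of matrix metalloproteinases, was lower than in control in scrib-+RasACT (-1.93), scrib-+NotchACT (-2.12) and scrib-+NotchACT+bskDN (-2.12), and lower in scrib-+ab than in ab (-1.995). Against control it was higher in ab (1.63) and not called in scrib-+ab, where it averaged 7.19 ± 0.40 against 7.55 ± 0.69 in control (SD, n = 3 each). In ab discs 4 of 8, *Timp* among them, were higher (8.68% of all probe sets) and 2, *Mmp2* among them, lower than in control (5.87%): *mmd* (2.62), an ADAM metalloprotease gene that lay near the floor in the other groups, and *Timp* rose and *Mmp2* fell most. In scrib-+ab, *Timp* and *kuz* (1.25), which encodes the ADAM10-type protease, were higher and *Mmp2* was lower. *kuz* was lower in scrib-+RasACT (-1.37). *Mmp1* was not analysed here.

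The genes whose levels ran most like each member over the 21 arrays were sought among 3673 probe sets, as a description: the arrays share genotype groups, tissue and normalisation. For *Mmp2* they were *CG5346* (Pearson r = 0.955), *danr* (0.944) and *siz* (0.934). For *Timp* they were *Ctps* (0.964), *GstT3* (0.962) and the muscle marker *TpnC73F* (0.961), for *vkg* *Idgf6* (0.942), *Idgf2* (0.935) and *CG33494* (0.934), and for *SPARC* *Mes2* (0.931), *bero* (0.928) and *AnxB10* (0.910). Among the members, *vkg* and *SPARC* were the most alike (r = 0.725) and *Mmp2* and *Timp* the least (r = -0.298).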

How the data were processed

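Total RNA of mosaic eye-antennal discs was hybridised to 21 Affymetrix Drosophila Genome 2.0 arrays. The authors deposited GCRMA log2 values (per the labels and methods), and these log2 values were used as given after 183 control probe sets were set aside; the floor was 2.174. Depth has no meaning here, and the 3 arrays per group limit the precision. Probe sets were named from the array annotation: 13647 had 1 symbol, 402 several and 4720 none. A gene with several probe sets was represented by its brightest one on average.

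Groups were compared with limma (version 3.58.1, R 4.3.3; lmFit and eBayes) over 18769 probe sets, with the *ab* groups and control fitted on 9 arrays, the other tumours against control on 21, and the bskDN effects and their difference on 12. Called means adjusted p (Benjamini-Hochberg) under 0.05 and absolute log2 change over 1. The test was checked on simulated data. Replicate numbers of scrib-+RasACT and control deviated together (r = 0.144, 0.144 and 0.240); the block changed no call of the 4 genes there. In the other comparisons r was negative or of mixed sign (-0.273 to 0.297), and no pairing was used. The labels and methods do not say whether shared numbers mark pairs or batches.

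Members and lists were chosen with earlier results of these data known. By rule, the members and, per list and comparison, up to 3 called genes with the largest change were named, with the 3 probe sets most like each member (highest group mean of at least 8, span of at least 1). Promoter motifs and sequences were not analysed here. Alternatives covered normalisation, filtering, variance model, weights, block, arrays fitted and single arrays left out.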

Additional observations from a re-analysis of the deposited data

Results flagged for a closer look

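The effect of bskDN differed between the tumours by a test of the difference itself, Ras minus Notch, for each of the 4 genes. The difference was 1.75 for *Mmp2*, 1.89 for *Timp*, 2.82 for the second *Timp* probe set (adjusted p = 0.00342), 3.23 for *vkg* and 3.04 for *SPARC*. For none of the 4 genes was it called in every alternative tried, and for *vkg* the call was lost, among others, after a further quantile normalisation (adjusted p = 0.0697). No difference of this kind was called for the second *Mmp2* probe set, which lay at the floor. Groups of 3 arrays were not searched for outlying arrays.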

How the results depend on the processing

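*SPARC* in scrib-+ab against control kept its call in 6 of 14 alternatives and the *vkg* difference between bskDN effects in 9 of 19. The other exceptions follow. With the replicate block, the difference between the bskDN effects was no longer called for *Mmp2* (1.72, adjusted p = 0.0593), *Timp* (1.91, adjusted p = 0.0955), *vkg* (3.31, adjusted p = 0.221) or *SPARC* (3.15, adjusted p = 0.182). In scrib-+NotchACT+bskDN against scrib-+NotchACT the block took *vkg* to -4.37 (adjusted p = 0.0507) and *SPARC* to -3.37 (adjusted p = 0.0634), and in scrib-+ab against control *SPARC* to -1.13 (adjusted p = 0.0644). It changed no other call of the 4 genes. *SPARC* in scrib-+ab was also not called with eBayes with trend and robust (-1.13, adjusted p = 0.0714), array weights (-1.15, adjusted p = 0.147) or the 6 arrays alone (-1.13, adjusted p = 0.0638), and ranged from -1.36 to -0.92 with single arrays left out. Array weights brought *vkg* in scrib-+NotchACT against control to 1.13. A further quantile normalisation took the *vkg* difference between bskDN effects to 2.52 (adjusted p = 0.0697) and *Timp* in scrib-+ab against ab to 0.0094. With single arrays left out, the *vkg* difference ranged from 2.91 to 3.69, *Timp* in scrib-+ab against ab from -0.32 to 0.11, *vkg* in scrib-+RasACT against control from -0.18 to 0.60, *Timp* in scrib-+RasACT+bskDN against control from -0.11 to 0.14, *SPARC* in scrib-+RasACT+bskDN against scrib-+RasACT from -0.48 to 0.0045, and *Mmp2* in scrib-+RasACT+bskDN against control from -1.18 to -0.91. The mean of the *Mmp2* probe sets, 1 of them at the floor, gave -0.70 in scrib-+RasACT, -0.82 in scrib-+NotchACT and -0.54 in scrib-+RasACT+bskDN against control, -0.72 in scrib-+NotchACT+bskDN against scrib-+NotchACT and 0.88 for the difference, all under the limit of 1 by construction. Chosen after seeing the data, arrays named by a number alone gave -4.37 (adjusted p = 0.0644) for *vkg* and -2.95 (adjusted p = 0.0765) for *SPARC* in the Notch tumours, and arrays named by a letter alone gave -1.33 (adjusted p = 0.0514) for *Mmp2*; a lone array was assumed to vary like the other groups. Leaving out the 6 *ab* arrays, also chosen after seeing the data, changed no call. For these exceptions the cause was not tested.

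Counts of called probe sets moved by over 1.5 times in 5 comparisons: 803 in scrib-+ab against ab became 250 with trend and robust, 467 with weights, 477 with the block and 461 with 6 arrays; 1207 in scrib-+RasACT against control became 625 with 6 arrays; 792 in scrib-+RasACT+bskDN against scrib-+RasACT became 430 with the block and 424 with 6 arrays; 1008 in scrib-+NotchACT+bskDN against scrib-+NotchACT became 538 with the block and 444 with arrays named by a number; and 847 for the difference became 1291 with weights and 250 with the block. Quantile normalisation took the share of calls that were higher to 48.3% in ab (59.7% before), 53.0% in scrib-+ab against ab (42.6%), 41.3% in scrib-+NotchACT+bskDN against control (27.6%) and 56.0% for the difference (73.0%).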

Other observations

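Of 16 receptor and adhesion genes, 3 were higher than in control in scrib-+ab (8.72% of all probe sets). In ab 3 were higher (8.68%) and 1 lower (5.87%). *Itgbn*, the beta-nu integrin subunit, was the most raised in the *ab* groups against control (5.52 in scrib-+ab and 4.57 in ab), and it lay near the floor in the other 5 groups. The alpha integrin gene *if* (1.79) and the glypican gene *dlp* (1.15) were higher in scrib-+ab. With bskDN in the Notch tumours *scb* (-1.73) and *if* (-1.03), both alpha integrin subunits, were lower and *dlp* (1.36) higher, and in the Ras tumours *Dg*, the dystroglycan gene, was higher (1.40).

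Of 7 genes for collagen IV processing and secretion, none was called with bskDN in either tumour. Over all probe sets 4.22% were called in the Ras tumours and 5.37% in the Notch tumours. *Loxl2* lay near the floor in every group and *Loxl1* in every group but control. *PH4alphaEFB*, a prolyl 4-hydroxylase subunit, was lower than in control in scrib-+ab (-1.76), scrib-+NotchACT (-1.15) and scrib-+NotchACT+bskDN (-1.45), and *Tango1*, needed for collagen export, was lower in scrib-+ab (-1.13) and ab (-1.32).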
